A study of Homo sapiens with 27 samples.

Results

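Oxidative phosphorylation genes were taken as every gene whose symbol in the array's probe annotation begins with NDUFA, NDUFB, NDUFC, NDUFS, NDUFV, UQCR, COX4 to COX8 or ATP5, or is SDHA, SDHB, SDHC, SDHD or CYC1. This gave 75 genes of the 15240 that the annotation names, read by 94 probes of 30968 on the array, and each gene was read through its probe with the highest mean log2 intensity. Of the 75, 31 encode subunits of complex I, 2 of complex II, 7 of complex III, 17 of complex IV and 12 of complex V, the ATP synthase. The other 6 carry such a symbol without being subunits: NDUFAF1 and NDUFA12L (now NDUFAF2) are complex I assembly factors, COX7A2L is a factor of respiratory supercomplexes, COX4NB (now EMC8) belongs to a membrane protein complex of the endoplasmic reticulum, ATP5S (now DMAC2L) is known as coupling factor B, and UQCRFSL1 (now UQCRFS1P1) is a pseudogene. Symbols are given as in the annotation, so that ATP5B is the gene now called ATP5F1B, ATP5D is ATP5F1D, ATP5F1 is ATP5PB, ATP5G2 is ATP5MC2, ATP5G3 is ATP5MC3 and UQCR is UQCR11.

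The cells were U937, a human histiocytic lymphoma line of monocyte character that the labels call macrophages, with no differentiating agent named. There were 3 groups of 3 biological replicates, here called cultures, each read on 3 technical arrays, 27 arrays in all. The first group received 10 µM PBD150, an inhibitor of glutaminyl cyclase, for 2 h and then 4 µg/ml LPS. The second received 4 µg/ml LPS alone, and the third was untreated. All were cultured for 48 h, and no PBD150 group without LPS is among the samples, so PBD150 was measured only on top of LPS.

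The respiratory chain of the inner mitochondrial membrane passes electrons from NADH at complex I and from succinate at complex II through ubiquinone to complex III, then through cytochrome c to complex IV, where oxygen is reduced. Complexes I, III and IV pump protons, and complex V uses the proton gradient to make ATP. LPS is the endotoxin of Gram-negative bacteria and is sensed through TLR4, and macrophages activated by it are known, mainly from mouse cells, for leaning on glycolysis and for using complex I and complex II to make reactive oxygen species. All values below are mRNA signals, on a log2 scale after quantile normalization of the 27 arrays, and a difference of 1 on that scale is a doubling.

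Median intensity per array was 64.7 to 92.0 in PBD150 plus LPS arrays, 68.3 to 100.34 in LPS arrays and 41.5 to 74.9 in untreated arrays, and 69.04% to 77.75% of probes lay above a noise limit of 3 times the root mean square of the array's values below 0. Of the 75 genes, 66 were above noise on all 27 arrays, and 9 (NDUFA5, NDUFS1, NDUFC2, NDUFA4, COX7A1, COX7B2, COX8A, ATP5E and ATP5G2) were not. All 11 measured myeloid markers were above noise on every array, and so were 3 of 5 T or NK cell markers, 2 of 3 B cell markers, 3 of 5 fibroblast markers, 2 of 5 striated muscle markers and none of 3 epithelial markers. LPS culture 1 departed most from the other LPS cultures, though by the median little more than culture 3. The 75 genes differed from the mean of the others by a median of 0.43 without regard to sign, against 0.24 for culture 2 and 0.38 for culture 3. In culture 1, 5 genes lay over 1 below that mean and 6 over 1 above it, against 3 and 1 in culture 2 and 1 and 1 in culture 3. The median SD between cultures over the 75 genes was 0.22 in PBD150 plus LPS cultures, 0.34 in LPS cultures and 0.11 in untreated cultures. The labels call the cultures biological replicates and say no more, so p-values measure the spread between these cultures.

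With LPS, more oxidative phosphorylation genes fell than rose. Of the 75, 21 fell and 2 rose in LPS cultures against untreated cultures at an adjusted p under 0.05 in limma, with Benjamini-Hochberg adjustment over all 30968 probes. Among all named genes 15.4% fell and 13.5% rose by the same test, against 28.0% and 2.67% of the 75. The median log2 difference was -0.46 over the 75 genes and 0.05 over all named genes, and 58 of the 75 lay below 0. By culture, the median difference of the 75 genes from the untreated mean was -0.33, -0.58 and -0.43 in LPS cultures, against -0.05, 0.02 and 0.02 in untreated cultures. The groups did not overlap for 38 genes that were lower with LPS and 5 that were higher, where the same held for 24.7% and 25.8% of all named genes. Leaving out 1 culture moved the number that fell between 11 and 25. It was 11 to 13 where an untreated culture was left out, 14 without LPS culture 2 and 25 without LPS culture 1. Over the same fits 7.8% to 13.4% of all probes fell, against 11.8% with all cultures. In these bulk cultures, fewer cells with a given transcript and less of it per cell cannot be told apart.

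The share that fell differed with how bright a probe was, so genes of like brightness are given beside it. Among 27 members with a mean log2 intensity of 13 or more, 6 fell and 1 rose, with a median of -0.37, where 89 of 440 named genes in that range fell (20.2%) and 142 rose (32.3%), with a median of 0.12. Among 29 members between 8 and 13, 11 fell and none rose, with a median of -0.58, where 20.7% of 5406 named genes fell and 21.0% rose. Among 19 members under 8, 4 fell and 1 rose, where 12.1% of 9394 named genes fell and 8.36% rose.

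The counts by complex are given beside the 15.4% of all named genes that fell. In complex I 10 of 31 fell (32.3%), in complex II both measured subunits, in complex III 2 of 7 (28.6%), in complex IV 2 of 17 (11.8%) and in complex V 2 of 12 (16.7%), with median log2 differences of -0.46, -0.96, -0.63, -0.10 and -0.52. Of the 6 genes that are not subunits 3 fell, with a median of -0.92. The shares in complexes IV and V were near that of all named genes, and differences between complexes were not tested. With the intensities left as deposited, where the median of all probes lay at 0.41 in place of 0.08, 8 genes fell and 4 rose, and the median of complex IV turned to 0.24.

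Markers of other cell types moved between the same groups. Of 5 T or NK cell markers CD2 and NKG7 rose with LPS against untreated cultures by the same test, and the summed log2 level of the 5 was 45.61 to 47.28 in PBD150 plus LPS cultures, 45.1 to 48.44 in LPS cultures and 42.52 to 43.19 in untreated cultures. Of 3 B cell markers MS4A1 rose and CD79A fell, with sums of 18.91 to 19.79 in PBD150 plus LPS cultures, 18.56 to 20.1 in LPS cultures and 19.89 to 20.21 in untreated cultures. Of 3 epithelial markers EPCAM rose, with sums of 13.96 to 14.29 in PBD150 plus LPS cultures, 13.95 to 14.4 in LPS cultures and 8.93 to 12.09 in untreated cultures. Of 5 fibroblast markers DCN and PDGFRB rose, with sums of 29.4 to 31.32 in PBD150 plus LPS cultures, 28.42 to 30.44 in LPS cultures and 26.75 to 27.45 in untreated cultures. Of 5 striated muscle markers MYH7 and TNNT2 rose, with sums of 32.77 to 35.9 in PBD150 plus LPS cultures, 33.1 to 35.24 in LPS cultures and 29.64 to 30.67 in untreated cultures. Of 11 myeloid markers 7 rose and none fell. None of these markers passed the test between PBD150 plus LPS and LPS cultures, and the part of these genes in the differences of the 75 was not tested.

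**Figure D1:**
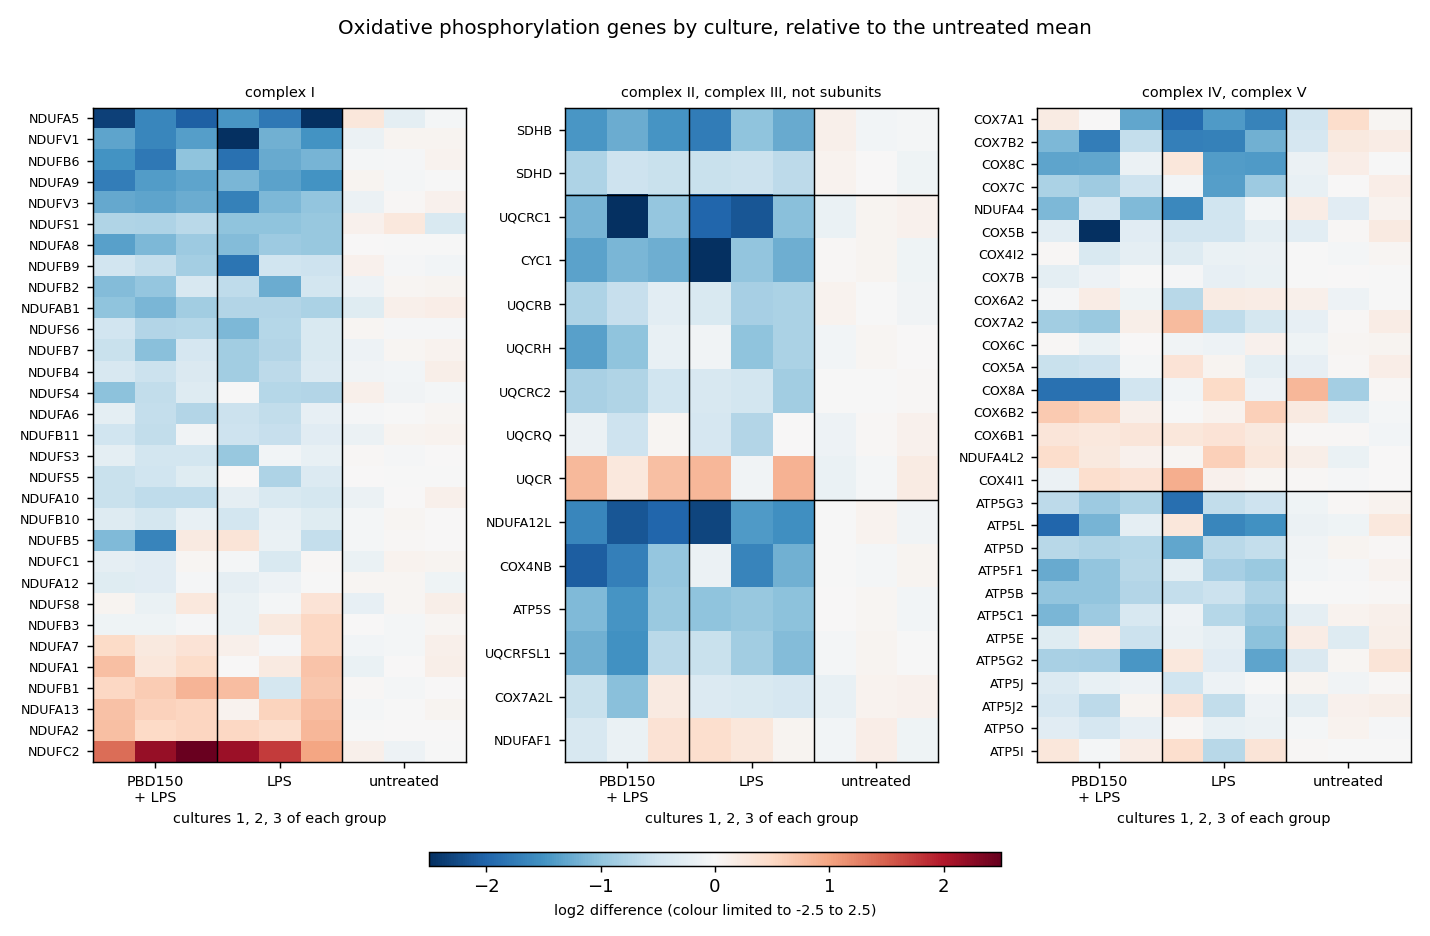
Log2 difference of each of the 75 genes from the mean of the untreated cultures, one row a gene and one column a culture, in the order PBD150 plus LPS, LPS and untreated, with colour limited to -2.5 to 2.5. Most rows of complexes I, II, III and V are blue in both treated groups, while NDUFC2, NDUFA2 and NDUFA13 are among those red. UQCR is red in all treated cultures but LPS culture 2. LPS culture 1 departs from its group downward in CYC1 and NDUFV1 and upward in ATP5L and COX8C, among others.

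**Figure D2:**
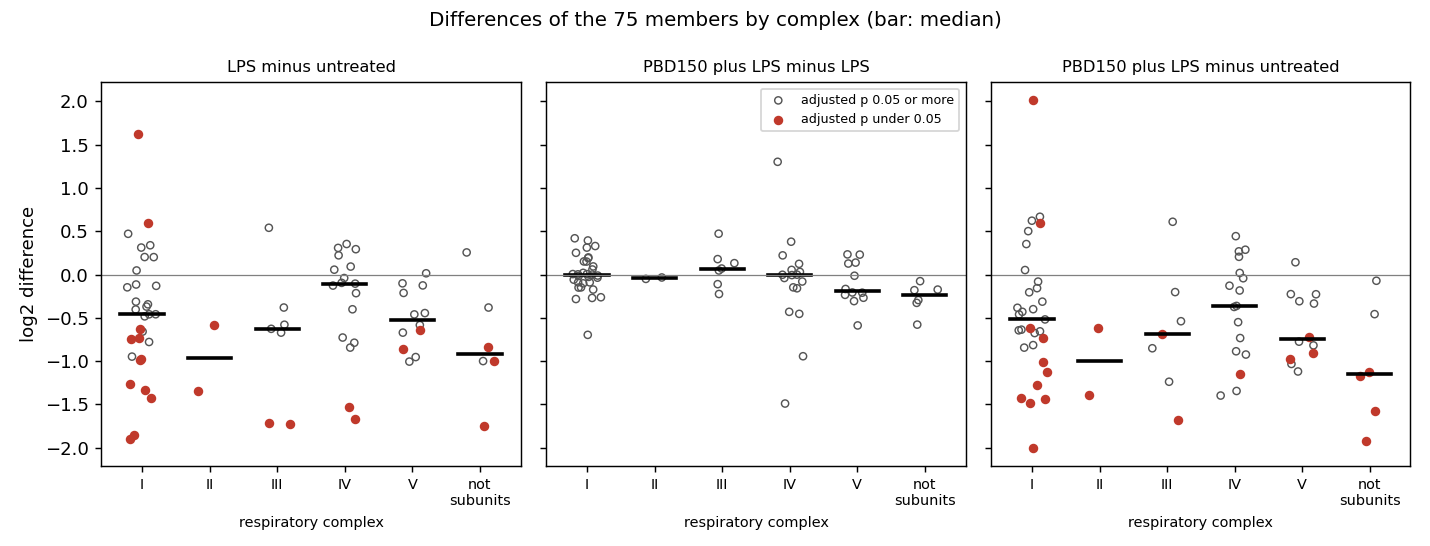
Log2 difference of each gene by complex for LPS minus untreated, PBD150 plus LPS minus LPS and PBD150 plus LPS minus untreated, with filled points for adjusted p under 0.05 and a bar at the median. Filled points lie mostly below 0 in the outer panels, and the middle panel has none.

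Promoter sequence was available from RefSeq (GRCh38.p14) for 60 of the 75 genes and was searched on both strands, from 250 bases before to 50 bases after the annotated start, for the letters of 3 motifs known from promoters of respiratory chain genes. These were GCATGCGC for NRF1, CCGGAAG for ETS factors such as GABP, and AAGATGGC for YY1. At least 1 of the 3 occurred in 30 of the 60 promoters, against 21.5% of the 12217 promoters of all genes named on the array. NRF1 letters were in 11 of the 60 against 4.32%, ETS letters in 18 against 15.1% and YY1 letters in 9 against 4.28%. Among the 15 matched genes that fell with LPS, 5 held NRF1 letters, 3 ETS letters and 3 YY1 letters, and among the 44 matched genes that did not pass the test 6, 15 and 6 did. Both measured genes of complex II held NRF1 and ETS letters. The windows below run from 220 bases before to 30 after the start, 5′ to 3′ on the gene's strand, with motif letters in capitals. They show the complex II genes, whose signals fell together, and the complex I genes NDUFA9, NDUFB6 and NDUFV1, whose calls in LPS against untreated cultures held in every alternative tried.

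SDHB, chr1:17054003-17054252, minus strand: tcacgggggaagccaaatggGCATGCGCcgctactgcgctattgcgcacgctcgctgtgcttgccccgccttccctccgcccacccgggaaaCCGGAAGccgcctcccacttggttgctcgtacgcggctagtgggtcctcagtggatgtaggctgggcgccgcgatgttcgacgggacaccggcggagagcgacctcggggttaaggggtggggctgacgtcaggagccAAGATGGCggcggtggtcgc

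SDHD, chr11:112086653-112086902, plus strand: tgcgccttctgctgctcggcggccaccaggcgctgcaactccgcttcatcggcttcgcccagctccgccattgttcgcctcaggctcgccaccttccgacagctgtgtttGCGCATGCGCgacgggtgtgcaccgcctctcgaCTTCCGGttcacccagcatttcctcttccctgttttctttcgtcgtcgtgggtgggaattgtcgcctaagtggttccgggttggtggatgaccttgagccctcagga

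NDUFA9, chr12:4648894-4649143, plus strand: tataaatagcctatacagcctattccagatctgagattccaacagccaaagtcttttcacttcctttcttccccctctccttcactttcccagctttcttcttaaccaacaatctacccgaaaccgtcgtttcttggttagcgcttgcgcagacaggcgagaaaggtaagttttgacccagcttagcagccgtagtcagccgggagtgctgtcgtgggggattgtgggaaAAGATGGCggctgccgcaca

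NDUFB6, chr9:32573130-32573379, minus strand: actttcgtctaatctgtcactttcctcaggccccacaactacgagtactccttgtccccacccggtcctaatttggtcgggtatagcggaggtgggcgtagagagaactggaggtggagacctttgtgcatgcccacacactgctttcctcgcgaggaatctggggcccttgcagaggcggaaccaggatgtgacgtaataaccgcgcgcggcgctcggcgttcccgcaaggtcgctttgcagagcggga

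NDUFV1, chr11:67606716-67606965, plus strand: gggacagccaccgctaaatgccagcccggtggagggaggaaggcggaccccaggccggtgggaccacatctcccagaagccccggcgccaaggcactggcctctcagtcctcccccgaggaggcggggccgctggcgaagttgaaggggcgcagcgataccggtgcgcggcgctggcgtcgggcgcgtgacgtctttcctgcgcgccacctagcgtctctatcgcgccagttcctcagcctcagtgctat

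In SDHB the letters of all 3 motifs were present and did not overlap. In SDHD the NRF1 letters were matched on both strands at overlapping positions, with ETS letters downstream on the opposite strand. In NDUFA9 the YY1 letters lay after the start, and NDUFB6 and NDUFV1 had no match in the window searched. A match of letters is a description of the sequence, and binding was not measured.

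Complex I takes electrons from NADH, and of its core subunits 4 had a named probe. NDUFV1, which binds NADH and the flavin, had log2 levels of 10.62, 10.31 and 10.55 in PBD150 plus LPS cultures, 9.07, 10.73 and 10.43 in LPS cultures and 11.78, 12.01 and 12.00 in untreated cultures. All 6 LPS-exposed cultures were below the untreated ones, and LPS culture 1 was lowest by more than 1. The difference was -1.86 ± 0.39 (SE, adjusted p = 0.0098) in LPS against untreated cultures, 3.62-fold lower, and -1.35, adjusted p = 0.00258 without LPS culture 1. NDUFS1, the large iron-sulfur subunit, was read by a dim probe that was above noise on 5 of 9 PBD150 plus LPS arrays, 6 of 9 LPS arrays and 9 of 9 untreated arrays. It differed by -0.98 ± 0.20 (SE, adjusted p = 0.00863) between LPS and untreated cultures. The core subunits NDUFS3 and NDUFS8 did not pass the test, at -0.40 (adjusted p = 0.295) and 0.05 (adjusted p = 0.905). Their second probes, above noise on all 27 arrays, gave -0.82 ± 0.29 (SE, adjusted p = 0.075) and -0.99 ± 0.37 (SE, adjusted p = 0.0904). On these probes the LPS cultures lay below the untreated ones without overlap. The second NDUFS3 probe passed the test in PBD150 plus LPS against untreated cultures, at -1.18 (adjusted p = 0.0166).

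Of the 27 accessory subunits of complex I, which surround the core and are needed to build or steady it, 8 fell and 2 rose. NDUFA9, an accessory subunit beside the ubiquinone site, had log2 levels of 10.65, 10.99 and 11.05 in PBD150 plus LPS cultures, 11.24, 11.03 and 10.88 in LPS cultures and 12.44, 12.33 and 12.37 in untreated cultures. The untreated cultures were all above 12 and the others all at or below 11.24. The difference of -1.33 ± 0.19 (SE, adjusted p = 0.00141) had the smallest p of all 75 genes, and its call held under each of 20 alternatives. NDUFA8 had 12.35, 12.59 and 12.80 in PBD150 plus LPS cultures, 12.63, 12.80 and 12.76 in LPS cultures and 13.72, 13.71 and 13.70 in untreated cultures, with no overlap between LPS and untreated cultures and a difference of -0.98 ± 0.18 (SE, adjusted p = 0.00482). The second NDUFA8 probe, above noise on all 27 arrays, gave -0.48 ± 0.20 (SE, adjusted p = 0.126), and the call was also lost with intensities as deposited. NDUFB6, a subunit of the membrane arm, differed by -1.43 ± 0.26 (SE, adjusted p = 0.00525) and kept its call under each of 20 alternatives too.

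NDUFV3, an accessory subunit of the NADH-oxidizing part, had 9.30, 9.26 and 9.33 in PBD150 plus LPS cultures, 8.89, 9.46 and 9.58 in LPS cultures and 10.44, 10.60 and 10.69 in untreated cultures. LPS and untreated cultures did not overlap, and the difference was -1.26 ± 0.22 (SE, adjusted p = 0.00359). A second, dimmer probe for NDUFV3 gave 0.03 ± 0.44 (SE, adjusted p = 0.968). NDUFA5 had the largest decrease, at -1.90 ± 0.31 (SE, adjusted p = 0.00294), on a probe above noise on only 1 PBD150 plus LPS array, 2 LPS arrays and 8 untreated arrays of 9 each, so the size of this difference rests on signals near noise. The others that fell did so by less: NDUFAB1, the mitochondrial acyl carrier protein, at -0.74, NDUFS6 at -0.74 and NDUFB4 at -0.63, with adjusted p of 0.0235, 0.0411 and 0.0491. The NDUFAB1 call ended without untreated culture 2 or 3 or LPS culture 2 or 3. The second NDUFAB1 probe, above noise on all 27 arrays, gave -1.44 ± 0.54 (SE, adjusted p = 0.0962), without overlap between LPS and untreated cultures. The NDUFS6 and NDUFB4 calls ended in 7 of 9 ways of leaving out 1 culture, all but LPS culture 3 and PBD150 plus LPS culture 3.

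The complex I genes that rose were NDUFA2 and NDUFC2. NDUFA2, an accessory subunit of the peripheral arm, had 13.52, 13.26 and 13.31 in PBD150 plus LPS cultures, 13.29, 13.19 and 13.60 in LPS cultures and 12.76, 12.78 and 12.77 in untreated cultures. Every LPS culture lay above every untreated culture, and the difference was 0.59 ± 0.18 (SE, adjusted p = 0.0475). That call was lost in 14 of 20 alternatives, 8 of them among the 9 that leave out 1 culture, where values ran from 0.47 to 0.67. The second NDUFA2 probe, above noise on all 27 arrays, gave 0.36 ± 0.21 (SE, adjusted p = 0.27), with overlapping LPS and untreated cultures. NDUFC2 was above noise on 1 PBD150 plus LPS array, 2 LPS arrays and no untreated array, so its adjusted p of 0.0118 rests on signals near noise and no fold is given. NDUFA13 and NDUFA1 did not pass the test, at 0.47 (adjusted p = 0.149) and 0.31 (adjusted p = 0.399), though NDUFA13 passed without LPS culture 1, at 0.66, adjusted p = 0.0282. Of the 31 genes 23 lay below 0.

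Complex II, which is also the succinate dehydrogenase of the tricarboxylic acid cycle, was measured through SDHB and SDHD, and SDHA and SDHC were not analysed here. SDHB, its iron-sulfur subunit, had log2 levels of 13.88, 14.10 and 13.87 in PBD150 plus LPS cultures, 13.59, 14.33 and 14.08 in LPS cultures and 15.47, 15.28 and 15.28 in untreated cultures. No LPS-exposed culture reached the lowest untreated one. SDHB was 2.53-fold lower in LPS than in untreated cultures, and its call held under each of 20 alternatives, with adjusted p from 2.53e-09 to 0.0222. SDHD, a membrane anchor, had 11.73, 11.98 and 11.95 in PBD150 plus LPS cultures, 11.94, 11.96 and 11.85 in LPS cultures and 12.59, 12.51 and 12.39 in untreated cultures. Its groups did not overlap either, and the difference was smaller, at -0.58 ± 0.17 (SE, adjusted p = 0.0372). The SDHD call was lost in 9 of 20 alternatives, including those without any 1 untreated culture, LPS culture 2 or 3, or PBD150 plus LPS culture 2. Its values ran from -0.63 to -0.54 when 1 culture was left out.

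Complex III hands electrons from ubiquinol to cytochrome c, and 2 of its 7 measured subunits fell. CYC1, cytochrome c1, had log2 levels of 11.41, 11.60 and 11.52 in PBD150 plus LPS cultures, 9.82, 11.76 and 11.53 in LPS cultures and 12.78, 12.82 and 12.64 in untreated cultures. LPS culture 1 was lowest, far below the other LPS cultures. The difference was -1.71 ± 0.45 (SE, adjusted p = 0.0265), and it was -1.10, adjusted p = 0.00373 without LPS culture 1, while leaving out an untreated culture ended the call, with adjusted p up to 0.0779 over the 20 alternatives. UQCRC1, a core protein, had 11.01, 9.27 and 11.20 in PBD150 plus LPS cultures, 10.18, 10.04 and 11.12 in LPS cultures and 12.00, 12.24 and 12.27 in untreated cultures. Cultures within both LPS-exposed groups spread widely, yet none reached an untreated culture. The UQCRC1 difference was -1.72 ± 0.51 (SE, adjusted p = 0.0422), and its call ended without any 1 untreated culture or LPS culture 1 or 2, with values of -2.06 to -1.52 when 1 culture was left out. UQCRC2, also a core protein, had 12.65, 12.70 and 12.96 in PBD150 plus LPS cultures, 13.06, 12.995 and 12.58 in LPS cultures and 13.44, 13.46 and 13.48 in untreated cultures and did not pass the test, at -0.58 ± 0.19 (SE, adjusted p = 0.0642). Its other probe did pass, at -0.80 ± 0.18 (SE, adjusted p = 0.0121). Without LPS culture 1 UQCRC2 was at -0.67, adjusted p = 0.0454, and UQCRB at -0.82, adjusted p = 0.0233. UQCRB, a ubiquinone-binding subunit, was at -0.67 ± 0.21 (SE, adjusted p = 0.0522) with all cultures, UQCRH, the hinge protein, at -0.63, and UQCRQ at -0.38. UQCR, a small subunit, was the only one above 0, at 0.54 (adjusted p = 0.242), while its second probe was at -0.65 (adjusted p = 0.0533).

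Complex IV, cytochrome c oxidase, reduces oxygen. None of its 10 subunits of general use passed the test in LPS against untreated cultures, where 1 had an unadjusted p under 0.05 (41.4% of named genes did), and their median difference was -0.07, or 0.31 with intensities as deposited. For COX6B1, COX7B and COX4I1, 3 of the 75, some intensities lay at the ceiling of the array, within 0.5% of its highest value, so their differences may be understated. COX6B1 was at the ceiling on 6 PBD150 plus LPS arrays, 8 LPS arrays and no untreated array of 9 each, with log2 levels of 15.92, 15.88 and 15.93 in PBD150 plus LPS cultures, 15.90, 15.97 and 15.88 in LPS cultures and 15.66, 15.65 and 15.56 in untreated cultures. The LPS cultures lay just above the untreated ones, at 0.29 ± 0.15 (SE, adjusted p = 0.218), and its second probe gave 0.26 ± 0.21 (SE, adjusted p = 0.431). COX4I1, the usual isoform of subunit 4, was at the ceiling on 3 LPS arrays, all of LPS culture 1. It differed by 0.35 ± 0.27 (SE, adjusted p = 0.403), or 0.08, adjusted p = 0.83 without that culture. COX7B was at the ceiling on 4 PBD150 plus LPS arrays, 6 LPS arrays and 6 untreated arrays, and its difference of -0.13 stood beside -0.64 ± 0.23 (SE, adjusted p = 0.086) on its second probe, which passed the test in PBD150 plus LPS against untreated cultures at -0.85 ± 0.23 (SE, adjusted p = 0.0279). COX6C was at -0.04, and COX5A at 0.06, or -0.09, adjusted p = 0.835 without LPS culture 1. The 95% intervals of 5 of the 10 excluded a halving and a doubling. COX7C was the lowest of those above noise on every array, at -0.79 ± 0.32 (SE, adjusted p = 0.121), and passed the test without LPS culture 1 (-1.15, adjusted p = 0.00977). NDUFA4, first described in complex I and now counted in complex IV, was at -0.73 on a probe above noise on 10 of 27 arrays, and at -0.29, adjusted p = 0.53 without LPS culture 1.

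Complex IV has isoforms used by particular tissues or conditions, and 7 had a probe. COX7A1, the heart and muscle isoform, and COX7B2, a testis isoform, fell, at -1.66 ± 0.41 (SE, adjusted p = 0.0207) and -1.53 ± 0.33 (SE, adjusted p = 0.0107). Both probes were dim: COX7A1 was above noise on 4 PBD150 plus LPS arrays, 1 LPS array and 6 untreated arrays of 9 each, COX7B2 on 8 PBD150 plus LPS arrays, 8 LPS arrays and 9 untreated arrays. The COX7A1 call ended without untreated culture 2 or 3 or LPS culture 1 or 3. Their usual partners did not pass the test, with COX7A2 at -0.10, or -0.54, adjusted p = 0.309 without LPS culture 1, and COX7B at the values given above for its 2 probes. COX4I2, a lung and hypoxia isoform, was at -0.21 beside COX4I1 at 0.35, COX6B2 at 0.22 beside COX6B1 at 0.29, and COX8C at -0.84 (adjusted p = 0.273), which passed the test without LPS culture 1, at -1.40, adjusted p = 0.029. The partner of COX8C, COX8A, was above noise on no LPS or untreated array and gives no comparison. COX6A2, the muscle isoform, was at -0.10, or 0.19, adjusted p = 0.487 without LPS culture 1, and its partner COX6A1 was not analysed here. NDUFA4L2, known to be induced in hypoxia, was at 0.31 ± 0.21 (SE, adjusted p = 0.336).

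Complex V makes ATP with a catalytic F1 head, a ring of c subunits in the membrane and a stalk that holds them in place. Of 4 measured F1 subunits 2 fell, and of the 8 others none passed the test in LPS against untreated cultures. An unadjusted p under 0.05 was reached by 2 of the 8, where 41.4% of named genes reached it. ATP5B, the catalytic beta subunit, had log2 levels of 14.73, 14.72 and 14.98 in PBD150 plus LPS cultures, 15.12, 15.17 and 14.95 in LPS cultures and 15.71, 15.70 and 15.74 in untreated cultures. The untreated cultures lay close together and the LPS cultures all below them. The difference was -0.64 ± 0.17 (SE, adjusted p = 0.0264), and the call ended without any 1 untreated culture or LPS culture 2 or 3, with values of -0.68 to -0.57 when 1 culture was left out. ATP5D, the delta subunit, had 10.30, 10.23 and 10.28 in PBD150 plus LPS cultures, 9.69, 10.32 and 10.39 in LPS cultures and 10.90, 11.06 and 11.01 in untreated cultures and differed by -0.86 ± 0.22 (SE, adjusted p = 0.0222), a call lost without any 1 untreated culture. The second ATP5D probe, above noise on all 27 arrays, gave -0.29 ± 0.19 (SE, adjusted p = 0.306), with overlapping cultures. The c-ring gene ATP5G3 was at -1.005 ± 0.34 (SE, adjusted p = 0.0685) with LPS culture 1 far below the others, and at -0.57, adjusted p = 0.0475 without it. ATP5F1, the b subunit of the stalk, was at -0.67 ± 0.24 (SE, adjusted p = 0.0803), or -0.88, adjusted p = 0.0202 without LPS culture 1. ATP5O, the subunit that joins stalk and head, was at -0.10, and ATP5I, a small membrane subunit, at 0.01. ATP5I turned to -0.19, adjusted p = 0.702 without LPS culture 1, and the other 11 lay below 0.

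**Figure D3:**
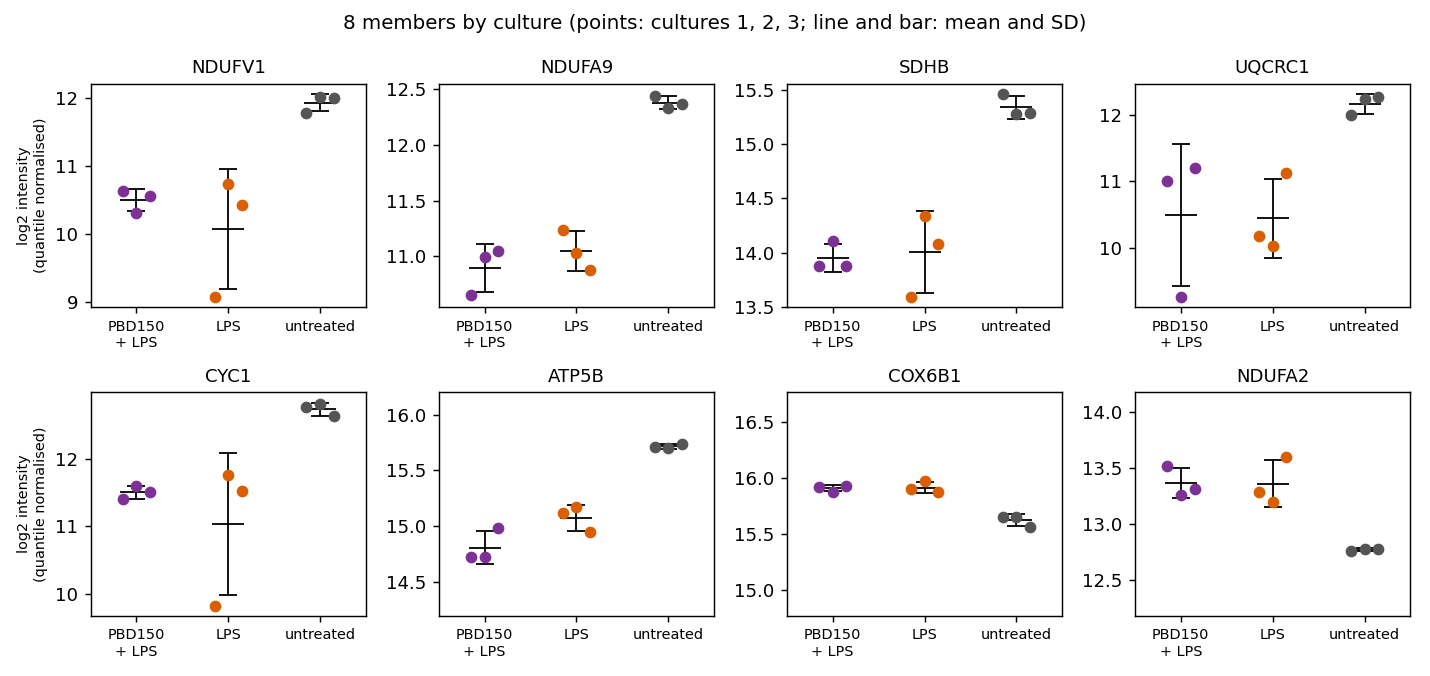
Log2 intensity of 8 genes in each culture, with the mean and SD of 3 cultures a group, and PBD150 plus LPS, LPS and untreated from left to right. The untreated cultures are above all others in NDUFV1, NDUFA9, SDHB, UQCRC1, CYC1 and ATP5B, and below them in COX6B1 and NDUFA2. LPS culture 1 lies far below its group in NDUFV1 and CYC1.

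Of the 6 genes that are not subunits, NDUFA12L, an assembly factor of complex I, had 10.88, 10.38 and 10.53 in PBD150 plus LPS cultures, 10.23, 11.10 and 10.98 in LPS cultures and 12.51, 12.61 and 12.43 in untreated cultures. It was 3.36-fold lower in LPS cultures, at -1.75 ± 0.26 (SE, adjusted p = 0.00189), and its second probe gave -1.80 ± 0.59 (SE, adjusted p = 0.0595). ATP5S fell, at -0.99 ± 0.19 (SE, adjusted p = 0.00596), and so did UQCRFSL1, at -0.84 ± 0.25 (SE, adjusted p = 0.0437), a call that ended without any 1 untreated culture, LPS culture 2 or 3, or PBD150 plus LPS culture 1. Whether the UQCRFSL1 probe reads the pseudogene or UQCRFS1, the Rieske protein gene it copies, was not tested. COX4NB was at -0.999 ± 0.41 (SE, adjusted p = 0.12), or -1.43, adjusted p = 0.0187 without LPS culture 1, COX7A2L at -0.38 and NDUFAF1 at 0.26.

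PBD150 was compared with LPS alone to ask whether the inhibitor changed these signals on top of LPS. None of the 75 genes passed the test in PBD150 plus LPS against LPS cultures in limma, and 0.0% of all 30968 probes did. Fitted on 27 arrays with a random block per culture, 1 probe was higher and 13 were lower, none of them a member. At an unadjusted p under 0.05 there were 2 of the 75 (2.67%), where the background was 5.11% of all probes and 4.47% of named genes. The median difference was -0.03 over the 75 genes, and it was 0.03 without PBD150 plus LPS culture 2 and -0.23 with intensities as deposited, where all probes were at -0.12. For 56 of the 75 the 95% interval excluded both a halving and a doubling, and for the other 19 the interval reached at least one of them. Culture groups did not overlap for 2 genes that were higher, COX7A1 and NDUFS1, and 4 that were lower, COX8A, NDUFA10, NDUFAB1 and ATP5O, where 3.28% and 4.46% of named genes did so.

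In complex I, NDUFA10, an accessory subunit, had 10.35, 10.27 and 10.27 in PBD150 plus LPS cultures, 10.70, 10.53 and 10.48 in LPS cultures and 10.77, 10.93 and 11.04 in untreated cultures. The PBD150 plus LPS cultures lay below the LPS cultures by little, at -0.27 with a 95% interval of -0.65 to 0.11. NDUFB5, of the membrane arm, was at -0.70 (-1.72 to 0.33), with overlapping cultures. For genes that fell with LPS the differences between PBD150 plus LPS and LPS cultures were -0.15 (-0.58 to 0.28) for NDUFA9, 0.42 (-0.47 to 1.31) for NDUFV1 and 0.00 (-0.60 to 0.60) for NDUFB6. Complex II showed -0.05 (-0.56 to 0.46) for SDHB and -0.03 (-0.41 to 0.35) for SDHD. In complex III, CYC1 was at 0.47 (-0.55 to 1.497) and UQCRQ at 0.18 (-0.38 to 0.73). Without LPS culture 1, NDUFV1 turned to -0.08, adjusted p = 0.999 and CYC1 to -0.14, adjusted p = 0.999, and the values of NDUFB6, SDHB and SDHD, all near 0, changed sign when 1 or another culture was left out. In complex V, ATP5B was at -0.27 (-0.65 to 0.11) and ATP5G2, a c-ring gene near noise, at -0.59 (-1.51 to 0.34).

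Complex IV held both genes with an unadjusted p under 0.05, and both probes were dim. COX7A1 had 4.28, 4.10 and 2.79 in PBD150 plus LPS cultures, 2.17, 2.68 and 2.42 in LPS cultures and 3.61, 4.52 and 4.13 in untreated cultures. Every PBD150 plus LPS culture was above every LPS culture, the nearest at 2.79 and 2.68. The group means differed by 1.30 (0.36 to 2.24, adjusted p = 0.884). COX8A, a subunit of general use, was above noise on 1 of 27 arrays, so no fold is given for its difference (adjusted p = 0.891). COX5B had 14.41, 11.17 and 14.39 in PBD150 plus LPS cultures, 14.19, 14.20 and 14.41 in LPS cultures and 14.41, 14.70 and 14.89 in untreated cultures. Its low culture came from 1 technical array at an intensity of 61.28, where the other arrays of that culture were at 12550 and 14070, and the difference of -0.94 (-2.68 to 0.80) was -0.01, adjusted p = 0.994 with the median of the technical arrays in place of their mean. COX5A was at -0.43 (-0.96 to 0.10).

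Against untreated cultures, PBD150 plus LPS cultures gave the same counts as LPS cultures, 21 lower and 2 higher, where 17.9% of named genes were lower and 15.3% higher. Of the 21, 17 were also among those that fell with LPS alone; both comparisons use the same untreated cultures. The median difference was -0.61, with 61 of the 75 below 0. By complex 9 of 31 fell in complex I, both in complex II, 2 of 7 in complex III, 1 of 17 in complex IV and 3 of 12 in complex V, and 4 of the 6 others. NDUFA10, UQCRC2, ATP5F1 and COX4NB passed the test here and not with LPS alone, at -0.61 ± 0.17 (SE, adjusted p = 0.0268), -0.69 ± 0.19 (SE, adjusted p = 0.0302), -0.98 ± 0.24 (SE, adjusted p = 0.0171) and -1.58 ± 0.41 (SE, adjusted p = 0.022). All 4 calls ended without untreated culture 2 or 3 or PBD150 plus LPS culture 1 or 2, and those of UQCRC2 and COX4NB also without untreated culture 1. CYC1, NDUFS6, NDUFB4 and COX7A1 passed it with LPS alone and not here, at -1.24 (adjusted p = 0.0764), -0.64 (0.0601), -0.43 (0.14) and -0.36 (0.564). None of these 8 differed between PBD150 plus LPS and LPS cultures by the test of that difference. ATP5B differed from untreated cultures by -0.91 ± 0.17 (SE, adjusted p = 0.00471), NDUFA9 by -1.48 ± 0.19 (SE, adjusted p = 0.000694) and SDHB by -1.39 ± 0.22 (SE, adjusted p = 0.00226). Leaving out 1 culture moved the number lower between 11 and 27. It was 11 to 14 where an untreated culture or PBD150 plus LPS culture 1 or 2 was left out. Over the same fits 9.57% to 15.5% of all probes were lower, against 13.5% with all cultures.

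For 19 of the 75 genes a second, dimmer probe gave another reading of the same samples. In LPS against untreated cultures the probes had the same sign for 15 of 19 genes, with medians of -0.46 and -0.64, and differed by a median of 0.52. No gene was called by both probes, 7 were called by the brighter probe alone and 3 by the dimmer alone. Those 3 were UQCRC2, COX7A2L at -1.52 ± 0.45 (SE, adjusted p = 0.0432) and NDUFAF1, which was higher at 0.99 ± 0.17 (SE, adjusted p = 0.00337). NDUFV3, UQCR, UQCRB and NDUFS8 had opposite signs, and the second UQCRB probe was above noise on no array. In PBD150 plus LPS against untreated cultures, 4 genes were called by both probes, 4 by the brighter alone and 3 by the dimmer alone. With the dimmer probe taken for these 19 genes, 17 of the 75 fell and 2 rose in LPS against untreated cultures, and with the mean of a gene's probes 21 fell and 2 rose.

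**Figure D4:**
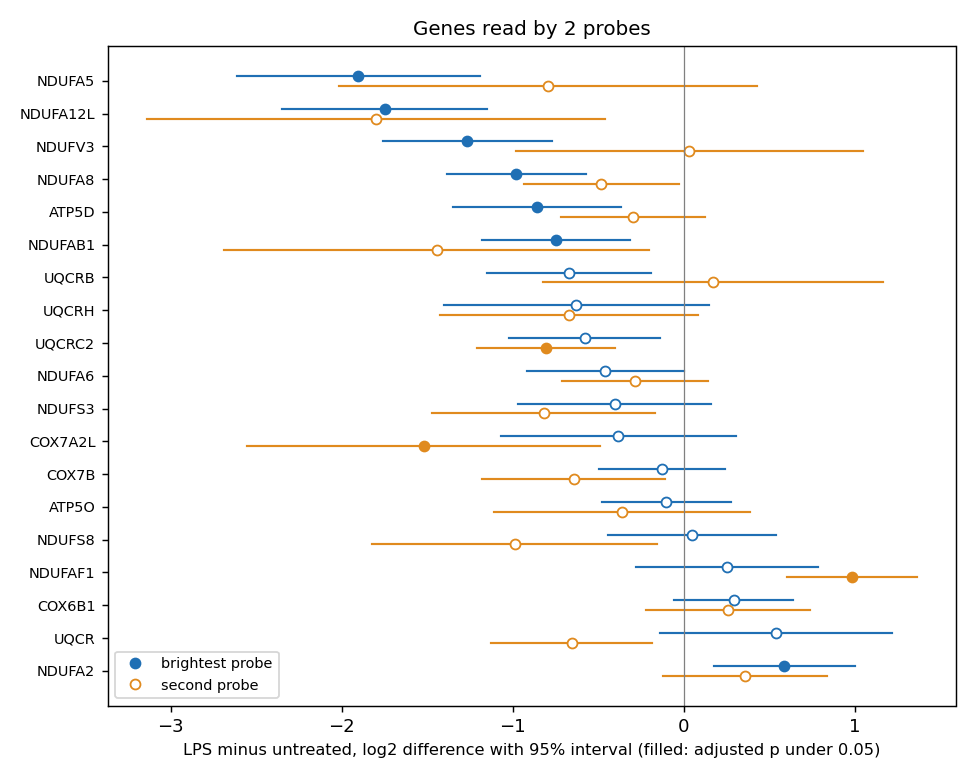
Log2 difference between LPS and untreated cultures with its 95% interval for the 19 genes with 2 probes, the brighter above the dimmer in each row and filled where adjusted p is under 0.05. Both probes lie on the same side of 0 for 15 of 19 genes, and no row has both points filled.

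Genes that build or feed the respiratory chain were read through 8 lists, set beside all named genes, of which 15.4% fell and 13.5% rose with LPS against untreated cultures. The mitochondrially encoded subunits had no named probe for any of 13 and were not analysed here. Of 40 measured assembly factors, 20 fell and 2 rose with LPS against untreated cultures, with a median of -0.77. TMEM70, needed to assemble complex V, averaged 4.38 in PBD150 plus LPS cultures, 4.28 in LPS cultures and 6.64 in untreated cultures, a difference of -2.36 ± 0.22 (SE, adjusted p = 0.000189). The size of this difference rests on dim signals in both LPS-exposed groups, and it ran from -2.49 to -1.68 over 18 alternatives. NDUFAF4, a complex I assembly factor, differed by -3.08 ± 0.42 (SE, adjusted p = 0.00114), and the complex IV assembly factors COA4 and COA7 by -1.62 ± 0.19 (SE, adjusted p = 0.000574) and -1.19 ± 0.16 (SE, adjusted p = 0.00117). The assembly factors that rose were SURF1 and SCO2, both of complex IV. None of the 40 passed the test between PBD150 plus LPS and LPS cultures.

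Electron carriers and coenzyme Q synthesis had 15 measured genes, of which 6 fell and 1 rose, with a median of -0.49. CYCS, cytochrome c, averaged 12.50 in PBD150 plus LPS cultures, 12.94 in LPS cultures and 14.40 in untreated cultures, a difference of -1.46 ± 0.29 (SE, adjusted p = 0.00735). COQ3 and COQ7, enzymes of coenzyme Q synthesis, differed by -1.29 ± 0.17 (SE, adjusted p = 0.000931) and -0.93 ± 0.18 (SE, adjusted p = 0.00717). ETFB, of the electron transfer flavoprotein, rose, at 1.28 ± 0.16 (SE, adjusted p = 0.000761). Of 16 genes of the tricarboxylic acid cycle and pyruvate dehydrogenase, 6 fell and 1 rose, with a median of -0.53. Citrate synthase, CS, differed by -1.35 ± 0.17 (SE, adjusted p = 0.000789), IDH3A by -1.16 ± 0.19 (SE, adjusted p = 0.00303) and PDHA1 by -1.69 ± 0.35 (SE, adjusted p = 0.0089), while PC, pyruvate carboxylase, rose, at 1.71 ± 0.17 (SE, adjusted p = 0.000282). Of 12 transport genes 2 fell, a share near the 15.4% of all named genes, the adenine nucleotide carriers SLC25A5 and SLC25A6, at -0.84 ± 0.17 (SE, adjusted p = 0.00882) and -0.83 ± 0.18 (SE, adjusted p = 0.0103), and UCP2, an inner membrane carrier, rose, at 1.02 ± 0.17 (SE, adjusted p = 0.00316). The median of the transport genes was -0.20, and 0.14 with intensities as deposited.

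Regulators of mitochondrial transcription and biogenesis had 18 measured genes, of which 10 fell and 1, TFB1M, rose, with a median of -1.31. TFB2M, a mitochondrial transcription factor, averaged 10.15 in PBD150 plus LPS cultures, 10.65 in LPS cultures and 13.52 in untreated cultures, a difference of -2.87 ± 0.23 (SE, adjusted p = 9.54e-05). TFAM, which packages and transcribes mitochondrial DNA, differed by -1.27 ± 0.19 (SE, adjusted p = 0.00191), TWNK, the mitochondrial helicase, by -2.45 ± 0.34 (SE, adjusted p = 0.00135) and LRPPRC, which stabilises mitochondrial mRNA, by -2.87 ± 0.45 (SE, adjusted p = 0.00234). Of 18 genes of fusion, fission and import 11 fell and 1, FIS1, rose, with a median of -1.54. HSPD1, the mitochondrial chaperonin, averaged 7.12 in PBD150 plus LPS cultures, 6.87 in LPS cultures and 11.41 in untreated cultures, a difference of -4.54 ± 0.38 (SE, adjusted p = 0.000115). The import subunits TIMM44 and TIMM23 differed by -2.15 ± 0.19 (SE, adjusted p = 0.000155) and -2.09 ± 0.20 (SE, adjusted p = 0.000228), and prohibitin, PHB1, by -1.81 ± 0.18 (SE, adjusted p = 0.000244). Of 9 HIF1 targets that act on respiration MXI1 rose, at 1.32 ± 0.18 (SE, adjusted p = 0.00126), and the protease gene LONP1 fell, at -1.52 ± 0.27 (SE, adjusted p = 0.00475), with a median of -0.21 over the 9, and 1 of 9 in each direction is no more than the share of all named genes. No gene of these lists passed the test between PBD150 plus LPS and LPS cultures.

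**Figure D5:**
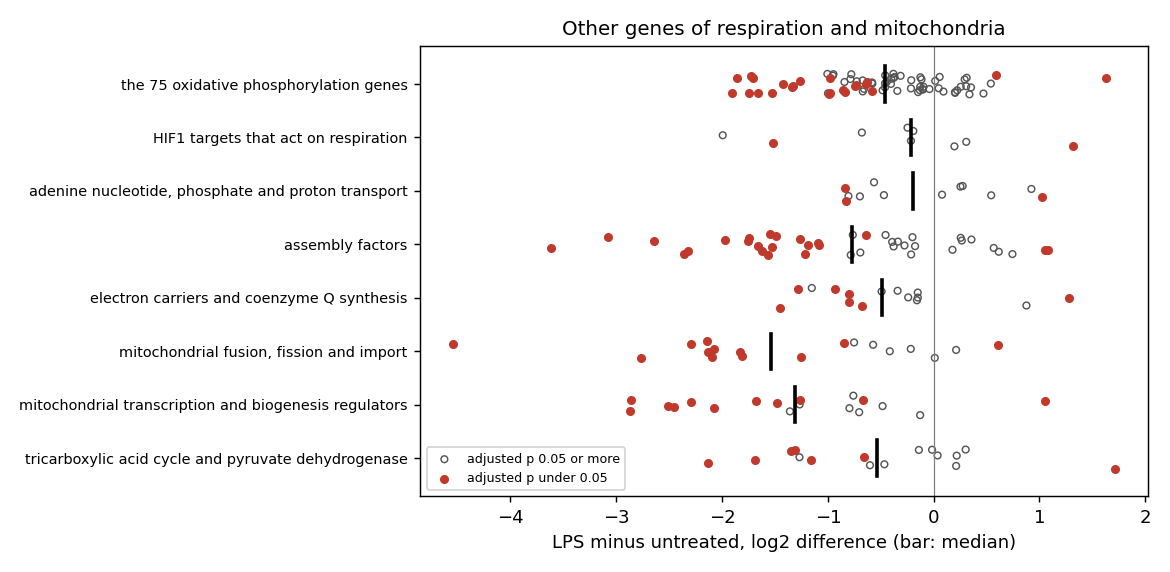
Log2 difference between LPS and untreated cultures for the 75 oxidative phosphorylation genes and the genes of 7 related lists, with filled points for adjusted p under 0.05 and a bar at the median. The lists share some genes with the 75. The medians of fusion, fission and import (-1.54) and of transcription and biogenesis regulators (-1.31) lie below that of the 75 genes (-0.46).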

How the data were processed

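RNA of U937 cells was labelled with Cy5 and hybridised, one sample an array, to Phalanx Human OneArrays, as the labels state. The deposited values are linear spot intensity values that go below 0 and have a different median on each array, so background had been subtracted and arrays had not been scaled to each other; on each array 17 to 69 probes lay within 0.5% of its highest value, here called its ceiling. The upstream software is not given in the sources used here. All values were floored at 1, put on a log2 scale, quantile normalised over 27 arrays and averaged over the 3 technical arrays of a culture. The 9 cultures were fitted as 3 group means in limma 3.58.1 (R 4.3.3), two-sided, with Benjamini-Hochberg adjustment over 30968 probes at 0.05, after the script was tested on simulated data. The platform annotation named 17397 probes; 13571 are unnamed here, and symbols were updated through RefSeq. The text names every complex's subunits with the smallest p (4 in LPS against untreated, 2 in PBD150 plus LPS against LPS), the tissue isoforms and up to 4 genes of each further list. Other members, and SURF1, SCO2, TFB1M and FIS1, were named after their values were seen. The genes and lists were chosen with earlier results of these data known. The number of cultures, 3 a group, limits the precision. Deviations of same-numbered cultures correlated at -0.51 to 0.12, with -0.51 and -0.37 for cultures 1 and 3 of PBD150 plus LPS against LPS. Deviations of cultures with different numbers were not compared. The number was not known to mark a shared day, so the replicate block was only an alternative. Alternatives were as deposited values, median centring, a pseudocount of 16, no dimmest probes, the block, array weights, all 27 arrays, only the groups compared, other probe choices and leaving out each culture; the median of the technical arrays was added after seeing the data.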

Additional observations from a re-analysis of the deposited data

How the results depend on the processing

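The decrease with LPS held in direction in every alternative, while the number of genes called did not. In LPS against untreated cultures, against 21 lower and 2 higher, 8 were lower and 4 higher with intensities as deposited, 38 and 4 with array weights, and 37 and 4 with 27 arrays and a random block per culture (correlation 0.2389). The number higher was 1 with median centring, a pseudocount of 16, no dimmest probes, the median of the technical arrays, only the groups compared or the replicate block, which left 15 lower. The median of -0.46 was -0.10 as deposited and -0.58 with median centring. Relative to all probes it lay between -0.62 and -0.45 in every alternative fitted over all probes. The share of all probes called moved too, from 11.8% lower and 10.6% higher to 7.12% and 19.2% as deposited. It was 17.9% and 17.6% with array weights, and 15.7% and 14.9% with 27 arrays and a random block per culture. In PBD150 plus LPS against untreated cultures, against 21 lower and 2 higher, 10 were lower and 4 higher as deposited, 37 and 4 with array weights, and 37 and 7 with 27 arrays; the number higher was 1 with median centring, the replicate block or the mean of a gene's probes, and 4 with only the groups compared. Its median of -0.61 was -0.40 as deposited and -0.46 with a pseudocount of 16. In this comparison 13.5% of all probes were lower and 12.6% higher, against 9.91% and 16.3% as deposited. These shares were 18.6% and 20.6% with array weights, and 16.7% and 18.6% with 27 arrays. The median of PBD150 plus LPS against LPS was -0.23 as deposited. Leaving out 1 culture gave 11 to 25 lower and 1 to 2 higher with LPS, the most without LPS culture 1 and the fewest without untreated culture 2 or 3. The same gave 11 to 27 lower and 1 to 3 higher with PBD150 plus LPS, with a median of -0.64 to -0.49, and of -0.081 to 0.0344 against LPS, where it turned to 0.0344 without PBD150 plus LPS culture 2. With the second probe NDUFV3 turned to 0.0338 in LPS and NDUFAF1 to 0.85 in PBD150 plus LPS, both against untreated cultures. The labels do not say whether same-numbered cultures share more than a number. With the replicate block 15 were lower and 1 higher in both comparisons with untreated cultures. Of all probes 9.35% were then lower with LPS and 11.1% with PBD150 plus LPS. The cause of these changes was not tested. Of single genes, 200 of the alternative values lost a call, 193 gained one, 155 moved and 5438 stayed. Of 23 calls with LPS, 12 held whichever culture was left out and 4 (NDUFA9, NDUFB6, NDUFV1 and SDHB) in every alternative.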
